A study of Mus musculus with 9 samples.

Results

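The secreted Wnt antagonists considered here are 9 genes of mouse 3T3 fibroblasts: Sfrp1, Sfrp2, Sfrp4, Sfrp5, Frzb, Dkk1, Dkk2, Dkk3 and Wif1. They were chosen by gene symbol in the array annotation, among 19698 genes whose probes carry 1 symbol each. The only measured value in the rule is the mean signal of a transcript cluster, by which the brightest of several clusters would be selected. Each of the 9 symbols has exactly 1 cluster, so that mean left none out. The 9 symbols themselves were listed with earlier results of these data known. Counts of them beside shares of all genes are therefore descriptions.

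Transcript levels were measured on 9 Affymetrix mouse Gene 1.0 ST arrays, which summarise the probes along a transcript into 1 log2 signal, in 3 groups of 3 arrays. BAF-knockdown cells carried a stable retroviral vector in which the U6 promoter drives 1 shRNA directed at a sequence common to Brg1 and Brm, the ATPases of the BAF nucleosome-remodelling complex. These cells were sorted for high levels of the GFP that the vector also encodes, and they received TNF-α at 5 ng/ml for 1 h. Control cells without the shRNA received the same TNF-α treatment or were left non-stimulated, and a control vector is not named in the sources used here. All cultures were subconfluent, replicates came from different days according to the methods, and non-stimulated BAF-knockdown cells were not analysed here. BAF-knockdown cells are set against TNF-treated control cells for the knockdown comparison. In it, depletion of the ATPases cannot be told apart from the retroviral vector and the sort for GFP. TNF-treated control cells are set against non-stimulated ones for the early response to TNF-α.

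Wnt proteins are secreted ligands that bind Frizzled receptors together with the co-receptors Lrp5 and Lrp6, which stabilises β-catenin and lets it activate target genes with Tcf and Lef factors. Secreted antagonists act outside the cell by 2 routes: the Sfrp proteins, Frzb and Wif1 bind the Wnt ligands themselves, whereas Dkk1 and Dkk2 bind Lrp5 and Lrp6. In mesenchymal cells, Wnt signalling is known to favour bone formation over fat formation, and fibroblasts are a common source of the antagonists.

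The labels were first examined through genes whose behaviour the treatments should set. Smarca4, which encodes Brg1, averaged 10.46 in BAF-knockdown cells and 11.57 in TNF-treated control cells, a 2.15-fold reduction with a difference of −1.11 ± 0.09 (limma adjusted p = 0.00362). The Brm gene Smarca2 averaged 9.21 in BAF-knockdown cells and 9.57 in TNF-treated control cells, and this difference of −0.36 ± 0.20 was not called (limma adjusted p = 0.734, and 0.129 with the replicate number as a block). Its BAF-knockdown arrays nevertheless all lay below the TNF-treated control arrays, as in 5.47% of all genes. The paper reports, from quantitative RT-PCR, that the shRNA lowered both transcripts. The TNF-responsive genes Tnfaip3, Nfkbia and Cxcl1 were 2.88, 1.38 and 1.10 higher in TNF-treated than in non-stimulated control cells (limma adjusted p = 0.000329, 0.000467 and 0.00297). Of 8 fibroblast markers, 7 lay above the median of all gene means of 7.998, among them Vim at 13.98 and Fn1 at 13.62, while Thy1 lay below it at 7.47. The 19 markers of leukocytes, epithelium and endothelium averaged 6.18 to 8.30, with 2 above the median.

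Same-numbered arrays of the 3 groups deviated together from their group means, and a second fit therefore added the replicate number as a block. All differences are in log2 signal, followed by their standard error from limma. A gene is called at a Benjamini-Hochberg adjusted p under 0.05 over all 19698 genes. Signals of different probes are not compared as amounts of RNA, since probes differ in affinity. In bulk cultures, fewer expressing cells and less RNA per cell cannot be told apart, and the number of arrays limits the precision.

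The 9 antagonists fell into 2 bright genes and 7 dim ones. Sfrp1 had a mean of 11.74 over the arrays, above 94.75% of gene means, and Dkk3 had a mean of 9.20, above 65.13% of them. The other 7 had signals between 5.86 and 7.86 on every array and means below the median of all genes.

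**Figure D1:**
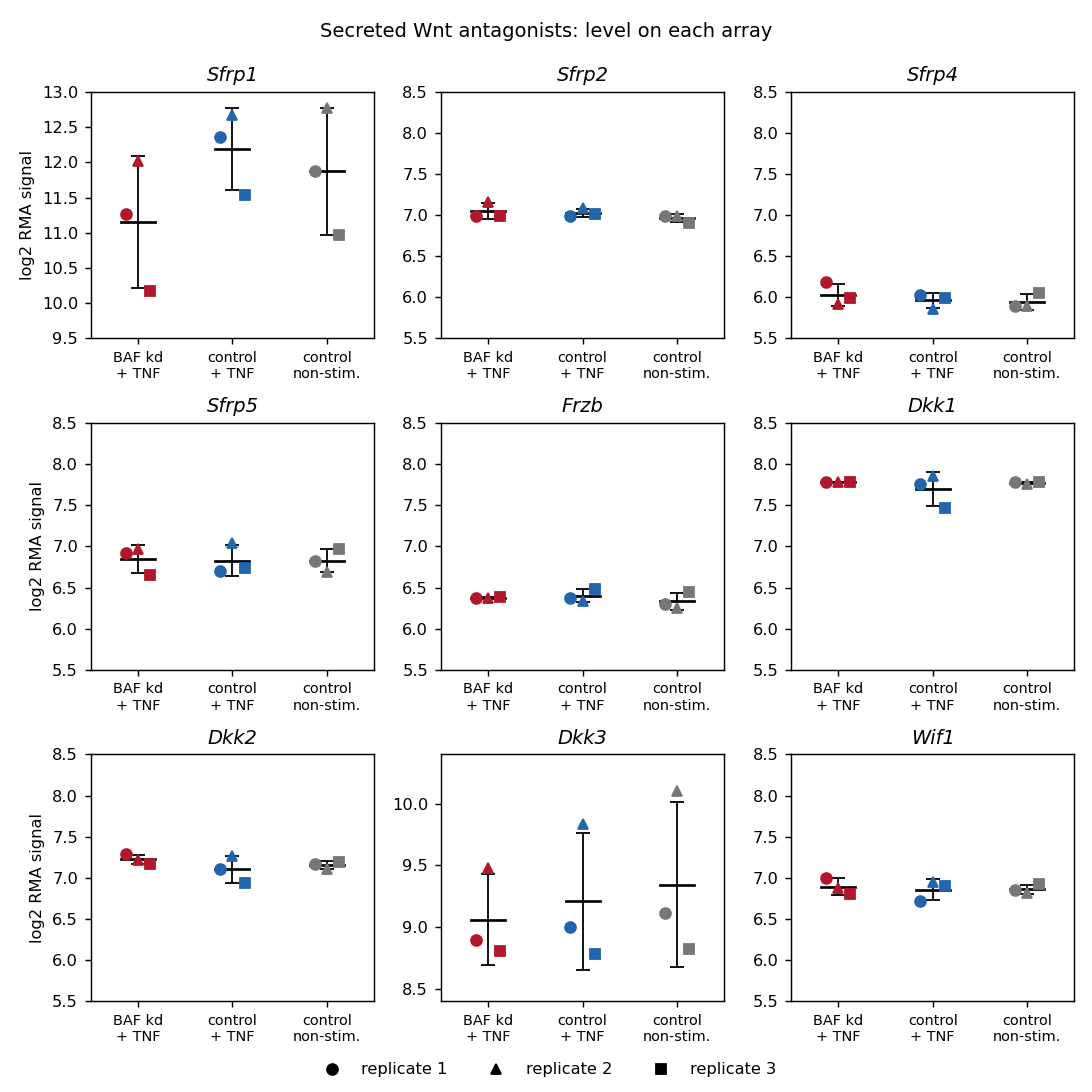
Log2 RMA signal (y axis) of each of the 9 antagonists on each array, for BAF-knockdown cells with TNF-α, control cells with TNF-α and non-stimulated control cells (x axis). Points are arrays with the replicate number as symbol, bars are the mean and 1 SD (n = 3 arrays), and the y range differs between genes. Sfrp1 runs from 10.17 to 12.78 and Dkk3 from 8.79 to 10.10, while the 7 other genes stay between 5.86 and 7.86.

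In the knockdown comparison, Sfrp1 was the only antagonist whose call depended on how the replicates were treated, and none of the other 8 was called by either fit. Without the block, 0 of the 9 antagonists were called by limma, against a background of 0.0355% of all genes called higher and 0.102% called lower, and 0 of the 9 had an unadjusted p under 0.05, as had 3.69% of all genes with BAF-knockdown higher and 4.75% with it lower. With the block, 1 of the 9 was called lower, namely Sfrp1, and 0 higher, against a background of 2.33% called lower and 0.98% called higher. At an unadjusted p under 0.05 the blocked fit also gave Sfrp1 alone, against 7.41% of all genes lower and 5.95% higher. The methods define BAF-dependent genes by a difference above 0.3 with no test named, and by that size alone 1 of the 9, Sfrp1, was lower and 0 higher, as were 3.27% and 1.87% of all genes. The methods' t-test, which they name for induced genes, called after adjustment 0 of the 9 and 0% of all genes in either direction. The median difference of the 9 was 0.02, beside 0.01 over all genes. In 0 of the 9 did the arrays of BAF-knockdown and TNF-treated control cells lie apart without overlap, whereas 4.63% of all genes lay apart with BAF-knockdown higher and 5.47% with it lower.

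Sfrp1 (transcript cluster 10570957, chromosome 8) encodes a secreted Frizzled-related protein, which carries a Wnt-binding domain like that of the Frizzled receptors. Its signals were 11.27, 12.03 and 10.17 in BAF-knockdown cells (replicates 1, 2 and 3), 12.36, 12.67 and 11.54 in TNF-treated control cells, and 11.88, 12.78 and 10.97 in non-stimulated control cells. The groups overlapped, because replicate 2 was high and replicate 3 low in each of them, but within every replicate number the BAF-knockdown array was the lowest of the 3. Sfrp1 averaged 11.16 ± 0.93 in BAF-knockdown cells and 12.19 ± 0.59 in TNF-treated control cells (SD, n = 3 each).

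The Sfrp1 difference was −1.03 ± 0.56, or 2.04-fold lower in BAF-knockdown cells, with a 95% interval of −2.30 to 0.24 (limma adjusted p = 0.719, unadjusted 0.0989). The arrays within a group spread over a wider range than this difference. Within replicate numbers 1, 2 and 3 the same difference was −1.09, −0.64 and −1.36, which is 2.13-, 1.56- and 2.57-fold lower. BAF-knockdown arrays were thus lower in 3 of 3 numbers. With the replicate number as a block the standard error was 0.13 and the 95% interval −1.34 to −0.72, and Sfrp1 was called lower (limma adjusted p = 0.00784). Leaving out all 3 arrays of 1 number from the blocked fit, an alternative chosen after the values were seen, gave −1.002 without number 1 (limma adjusted p = 0.273), −1.23 without number 2 (limma adjusted p = 0.00354) and −0.87 without number 3 (limma adjusted p = 0.104). The direction was the same each time, and the call was lost without number 1 or number 3, in fits with fewer arrays.

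Against non-stimulated control cells, Sfrp1 was lower in BAF-knockdown cells by 0.61, 0.75 and 0.80 in log2 signal within numbers 1, 2 and 3 (mean difference −0.72), a contrast that also contains the TNF-α treatment and was not tested.

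**Figure D2:**
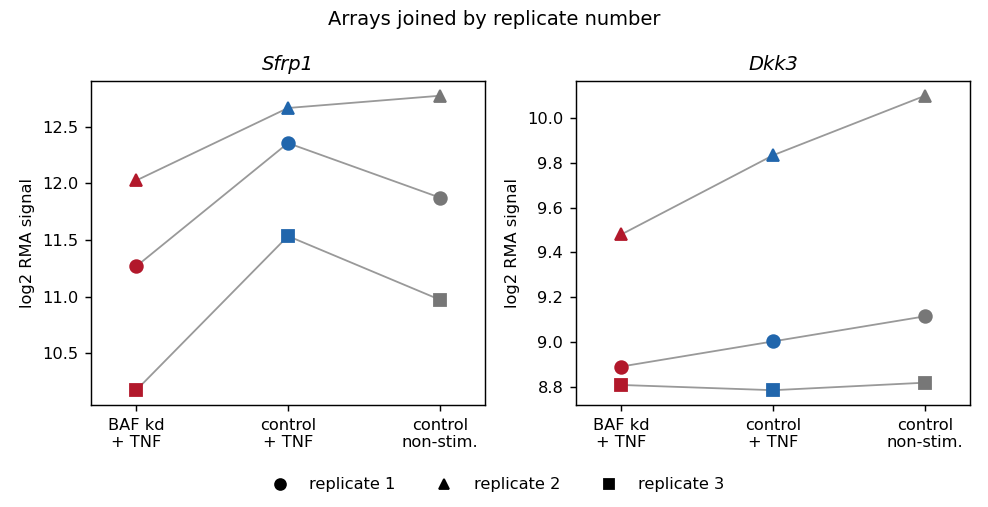
Log2 RMA signal (y axis) of Sfrp1 and Dkk3 in the 3 groups (x axis), with 1 point per array and lines joining arrays of the same replicate number. The BAF-knockdown point of Sfrp1 lies below both control points on all 3 lines, by 0.64 to 1.36 from the TNF-treated control, and replicate 2 is the highest line for both genes.

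Dkk3 (transcript cluster 10567010, chromosome 7), the divergent member of the Dickkopf family whose role in Wnt signalling is less settled than that of Dkk1, was the other bright antagonist. Its signals were 8.89, 9.48 and 8.81 in BAF-knockdown cells, 9.003, 9.83 and 8.79 in TNF-treated control cells, and 9.11, 10.10 and 8.82 in non-stimulated control cells. Replicate 2 stood above the others in every group, by more than any difference between group means. The knockdown difference was −0.15 ± 0.37 with a 95% interval of −0.99 to 0.70 (limma adjusted p = 0.968). The block narrowed the interval to −0.38 to 0.09 and Dkk3 was still not called (limma adjusted p = 0.659). Within numbers 1, 2 and 3 the difference was −0.11, −0.35 and 0.02. The blocked interval of Dkk3 does not reach the size of the Sfrp1 difference.

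Sfrp1 and Dkk3 were among the genes that varied most between arrays of the same group. The residual SD was 0.82 for Sfrp1 and 0.54 for Dkk3, against a median of 0.0922 over all genes, and it was exceeded by 0.102% and 0.437% of genes. With the replicate number in the fit these residual SDs were 0.21 and 0.16, against a median of 0.0797. Their signals had a Pearson r of 0.789 over the 9 arrays, which share replicate numbers and groups, and for both genes replicate 2 was the highest and replicate 3 the lowest in all 3 groups. The other antagonists had r with Sfrp1 between −0.563 and 0.405.

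The 5 genes whose signals were most like those of Sfrp1 over the 9 arrays were Deptor (Pearson r = 0.984), Tspan3 (0.981), Angpt1 (0.979), Ccdc50 (0.977) and Rnf122 (0.977). Deptor encodes an inhibitor of mTOR kinase and Angpt1 a secreted ligand of the Tie2 receptor. Their knockdown differences were −0.53, −0.20, −0.85, −0.14 and −0.55 in the same order. These correlations describe arrays that share replicate numbers and groups, and they have no test. The genes were picked on arrays that include the BAF-knockdown ones, so the shared sign of their differences follows in part from that choice.

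The 7 dim antagonists differed little between BAF-knockdown and TNF-treated control cells. Their differences ran from −0.02 for Frzb to 0.12 for Dkk2, the lowest unadjusted p was 0.16, and the 95% intervals together reached from −0.25 to 0.30. Larger differences than these in log2 signal lay outside the intervals, although a dim probe can understate a change of its transcript. Several values were exactly repeated: Sfrp2 had 1 value on 5 arrays, Dkk1 on 4, Frzb on 3 and Sfrp4 on 2. Repeats were not confined to dim genes, since the bright Tnfaip3 had 11.52 on both replicates 2 and 3 of BAF-knockdown cells.

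Among the Wnt-binding antagonists, Sfrp2 had signals of 6.995, 7.16 and 6.995 in BAF-knockdown cells, 6.995, 7.08 and 7.01 in TNF-treated control cells and 6.995, 6.995 and 6.91 in non-stimulated control cells. Sfrp4 had 6.18, 5.91 and 5.99 in BAF-knockdown cells, 6.03, 5.86 and 5.99 in TNF-treated control cells and 5.89, 5.89 and 6.05 in non-stimulated control cells. Both genes overlapped in all groups, and their knockdown differences were 0.02 ± 0.06 and 0.07 ± 0.08. Sfrp5 had 6.92, 6.97 and 6.65 in BAF-knockdown cells, 6.70, 7.04 and 6.74 in TNF-treated control cells and 6.82, 6.69 and 6.97 in non-stimulated control cells. Frzb, also known as Sfrp3 and first described in cartilage, had 6.37, 6.37 and 6.39 in BAF-knockdown cells, 6.37, 6.34 and 6.49 in TNF-treated control cells and 6.30, 6.25 and 6.44 in non-stimulated control cells. Neither stood apart in any group. Wif1, which binds Wnt ligands through a domain unrelated to that of the Sfrp proteins, had 6.999, 6.87 and 6.80 in BAF-knockdown cells, 6.72, 6.95 and 6.90 in TNF-treated control cells and 6.85, 6.81 and 6.92 in non-stimulated control cells. Its knockdown difference was 0.03 ± 0.08.

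Among the antagonists of the co-receptors, Dkk1 had signals of 7.78, 7.79 and 7.78 in BAF-knockdown cells, 7.77, 7.86 and 7.47 in TNF-treated control cells and 7.78, 7.76 and 7.78 in non-stimulated control cells. A single array, replicate 3 of the TNF-treated control cells, lay below the others, and the difference of 0.08 ± 0.09 in the knockdown comparison was −0.03 without it. Dkk2 had 7.29, 7.22 and 7.17 in BAF-knockdown cells, 7.10, 7.27 and 6.94 in TNF-treated control cells and 7.17, 7.10 and 7.19 in non-stimulated control cells. Its difference of 0.12 ± 0.08 (95% interval −0.06 to 0.30) was the largest of the 7 and was not called (limma adjusted p = 0.801).

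Promoter sequence of 250 bases before to 50 after the start of the gene was given by RefSeq (GRCm38.p6) for 6 of the 9 antagonists: Sfrp2, Sfrp5, Frzb, Dkk1, Dkk2 and Wif1. The promoters of Dkk1 and Dkk2 are shown because these genes had the largest knockdown differences of the 6, although neither was called. They lie at chr19:30549447-30549746 on the minus strand and chr3:132085042-132085341 on the plus strand, are written 5′ to 3′ along the gene, and have the TATA motif TATAAA in capitals.
Dkk1: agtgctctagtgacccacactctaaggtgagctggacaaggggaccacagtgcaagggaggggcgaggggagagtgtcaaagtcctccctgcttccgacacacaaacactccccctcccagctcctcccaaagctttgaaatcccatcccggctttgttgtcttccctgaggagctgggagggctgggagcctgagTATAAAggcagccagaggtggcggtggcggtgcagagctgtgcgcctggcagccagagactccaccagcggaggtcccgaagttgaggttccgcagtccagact
Dkk2: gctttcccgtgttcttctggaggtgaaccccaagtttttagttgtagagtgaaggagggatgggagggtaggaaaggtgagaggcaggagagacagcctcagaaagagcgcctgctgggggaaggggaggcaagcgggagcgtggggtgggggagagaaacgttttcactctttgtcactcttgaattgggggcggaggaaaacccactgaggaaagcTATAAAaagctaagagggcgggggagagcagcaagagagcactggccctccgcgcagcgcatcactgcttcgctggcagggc

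The motif begins 54 bases before the start in Dkk1 and 32 bases before it in Dkk2. TATAAA was searched on both strands, on which 13.6% of the 32851 promoters of the same length hold it. Wif1 holds it on the opposite strand, and Sfrp2, Sfrp5 and Frzb hold no match in this window. The 6 promoters were 57.7% to 66% G or C, and 4 of them (Sfrp2, Sfrp5, Frzb and Wif1) had a G or C content above 50% together with a ratio of observed to expected CG dinucleotides above 0.6, as did 33.3% of all promoters. They held 9 to 25 CG dinucleotides, where the median promoter held 7. These matches describe the letters only, and none was related to a level on the arrays.

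After 1 h of TNF-α, no antagonist was called in control cells. By limma, 0 of the 9 were called without the block, against 0.137% of all genes called higher and 0% called lower, and 0 of the 9 with the block, against 0.366% called higher and 0.0305% called lower. At an unadjusted p under 0.05 there were 0 of 9 without the block, against 1.85% of all genes higher and 1.22% lower, and 1 of 9 with it, Sfrp1 higher, against 3.02% higher and 2.24% lower. For induced genes, the methods' t-test with an increase above 0.35 took 0 of 9 and 0.543% of all genes, and the same test after adjustment 0 of 9 and 0.00508% higher. The median difference was −0.00, as over all genes. In 0 of the 9 did TNF-treated and non-stimulated control arrays lie apart, whereas 3.19% of all genes lay apart with TNF-treated cells higher and 2.78% with them lower.

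Sfrp1 had the largest TNF difference of the 9, at 0.31 ± 0.56 (95% interval −0.96 to 1.58, limma adjusted p = 1). Within numbers 1, 2 and 3 it was 0.48, −0.11 and 0.56, so TNF-treated cells were higher in 2 of 3 numbers, and the block gave an unadjusted p of 0.0483 but a limma adjusted p of 0.946. The blocked 95% interval was 0.00291 to 0.62, which lies just above 0. Leaving out 1 number, chosen after the values were seen, the blocked difference was 0.23 without number 1 and 0.19 without number 3. It was 0.52 without number 2 (limma adjusted p = 0.106), and none of these was called. The order of the Sfrp1 group means was TNF-treated control, non-stimulated control and BAF-knockdown cells. The difference between the control groups was not called by either fit. Dkk3 differed by −0.14 ± 0.37 (95% interval −0.98 to 0.71, limma adjusted p = 1), with −0.11, −0.27 and −0.03 within the numbers. The 7 dim antagonists differed by −0.08 for Dkk1 to 0.07 for Frzb, with intervals that together reached from −0.27 to 0.27 and a lowest unadjusted p of 0.296. The TNF and knockdown comparisons share the TNF-treated control arrays.

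**Figure D3:**
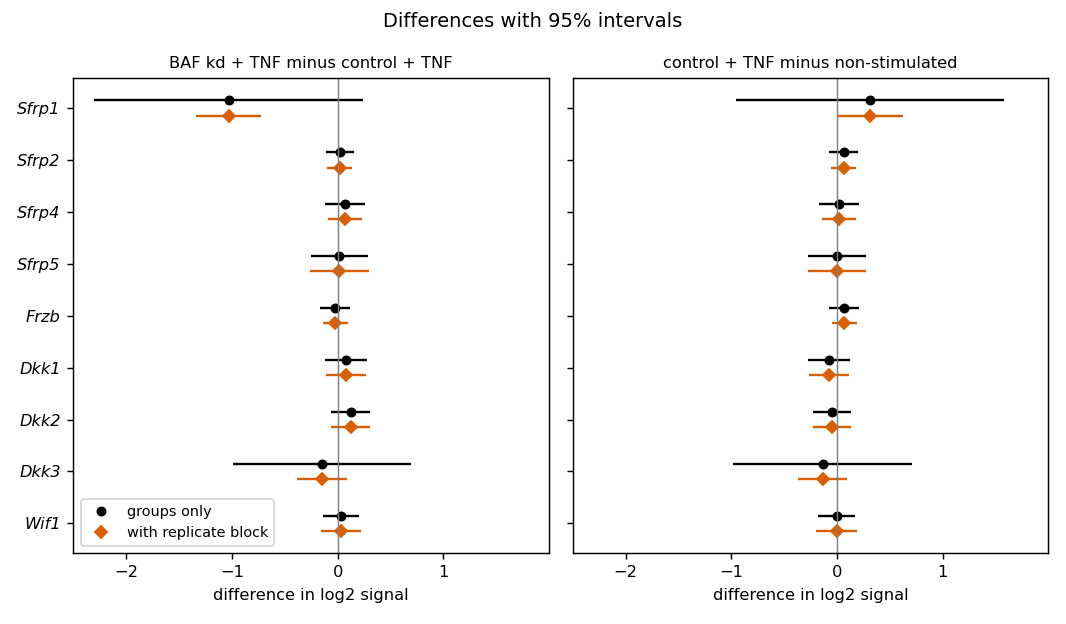
Difference in log2 signal (x axis) of each antagonist (y axis), BAF-knockdown minus TNF-treated control cells on the left and TNF-treated minus non-stimulated control cells on the right. Points are fitted differences and bars 95% intervals, for the fit of groups alone (circles) and with the replicate block (diamonds). The blocked interval of Sfrp1 on the left, −1.34 to −0.72, lies below 0, while those of the other 8 genes on the left span 0. On the right the blocked interval of Sfrp1, 0.00291 to 0.62, lies just above 0, although it was not called there, and those of the other 8 span 0.

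Other Wnt pathway genes were taken from 6 lists with 84 distinct genes measured, of which 6 stand in more than 1 list. These lists, too, were chosen with earlier results of these data known. In the knockdown comparison 0 genes of any list were called without the block, and a few were called with it, under the same backgrounds as above. Of the 8 other secreted Wnt inhibitors, 0 were called by either fit. Draxin, an axon guidance protein that also inhibits Wnt signalling, differed by −0.36 (limma adjusted p = 0.213 with the block), Notum, which removes the lipid from Wnt ligands, by 0.11, and Dkk4 and Sostdc1 by 0.10 each. The median of the 8 was 0.06.

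Of 19 Wnt ligands, 1 was called higher with the block and 0 lower, and their median difference was 0.01. This was Wnt5a, a ligand known mainly for β-catenin-independent signalling, with signals of 10.47, 10.22 and 10.41 in BAF-knockdown cells, 9.80, 9.60 and 9.43 in TNF-treated control cells and 9.86, 9.80 and 9.27 in non-stimulated control cells. All 3 BAF-knockdown arrays lay above all 6 control arrays. Wnt5a was 1.69-fold higher (difference 0.75 ± 0.16, limma adjusted p = 0.127, and 0.0162 with the block). The next ligands, Wnt8b, Wnt2b and Wnt8a, differed by 0.18, 0.14 and 0.10 and were not called.

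Of 18 receptors and co-receptors, 0 were called higher and 2 lower with the block, and their median difference was −0.02. Ptk7, a planar cell polarity receptor, had signals of 9.61, 9.70 and 9.52 in BAF-knockdown cells, 10.01, 9.97 and 9.80 in TNF-treated control cells and 10.23, 10.02 and 9.94 in non-stimulated control cells. Ror2, a receptor of Wnt5a, had 9.18, 9.26 and 8.94 in BAF-knockdown cells, 9.34, 9.63 and 9.31 in TNF-treated control cells and 9.32, 9.56 and 9.22 in non-stimulated control cells. In both genes the BAF-knockdown arrays lay below all TNF-treated control arrays. The differences were −0.31 ± 0.09 for Ptk7 (limma adjusted p = 0.288, and 0.0406 with the block) and −0.30 ± 0.12 for Ror2 (limma adjusted p = 0.529, and 0.0332 with the block). The Frizzled receptors Fzd7 and Fzd4 differed by −0.33 and −0.28 and were not called (limma adjusted p = 0.0767 and 0.0561 with the block). The list of R-spondins, which amplify Wnt signals, and their receptors holds 9 genes, among them the ubiquitin ligases Znrf3 and Rnf43. Of these 9 genes, 0 were called, and the largest difference was −0.28 for Rspo2 (limma adjusted p = 0.0588 with the block), followed by Lgr6 at 0.11, Rnf43 at −0.08 and Lgr4 at 0.05. Their median difference was 0.01.

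Of 22 intracellular components measured, 1 was called higher and 1 lower with the block, and their median difference was −0.02. Lef1, a transcription factor partner of β-catenin that is also one of its targets, had signals of 9.11, 8.92 and 9.56 in BAF-knockdown cells, 8.60, 8.66 and 9.09 in TNF-treated control cells and 8.71, 8.76 and 9.05 in non-stimulated control cells. Its groups overlapped, but the BAF-knockdown array was highest within every replicate number (difference 0.42 ± 0.19, limma adjusted p = 0.603, and 0.0232 with the block). Nkd2, a Dishevelled-binding inhibitor of Wnt signalling, had 7.79, 7.65 and 7.52 in BAF-knockdown cells, 8.15, 8.01 and 8.003 in TNF-treated control cells and 8.10, 7.98 and 7.96 in non-stimulated control cells. Its BAF-knockdown arrays lay below all 6 control arrays (difference −0.41 ± 0.08, limma adjusted p = 0.104, and 0.00628 with the block). Apc, a part of the complex that degrades β-catenin, and Ctnnb1, which encodes β-catenin, differed by 0.27 and 0.19 and were not called (limma adjusted p = 0.0746 and 0.279 with the block).

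Of 14 β-catenin target genes measured, 1 was called higher with the block, which is Lef1 again, and 0 lower. Ccnd1, which encodes cyclin D1, differed by 0.50 and Ccn4, a matricellular protein gene, by −0.50, and neither was called (limma adjusted p = 0.083 and 0.135 with the block). Apcdd1 differed by −0.13, and the median of the list was −0.01. Without the 3 arrays of 1 replicate number, an alternative chosen after the values were seen, the blocked call of Wnt5a was lost without number 1 (limma adjusted p = 0.326), and those of Lef1 and Nkd2 without number 1 (limma adjusted p = 0.424 and 0.193) and without number 3 (limma adjusted p = 0.172 and 0.0925). Those of Ptk7 and Ror2 were lost in all 3 cases (limma adjusted p from 0.0729 to 0.339 for Ptk7 and from 0.136 to 0.279 for Ror2), in fits with fewer arrays.

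**Figure D4:**
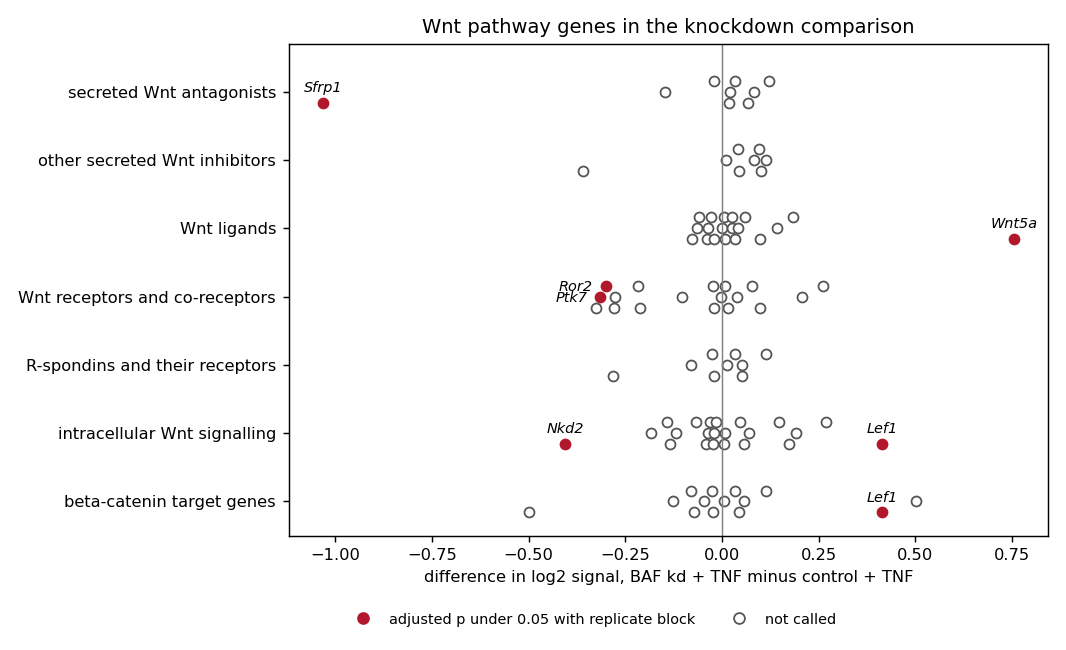
Difference in log2 signal between BAF-knockdown and TNF-treated control cells (x axis) for each gene of the antagonists and of 6 Wnt pathway lists (y axis, points staggered for legibility). Filled points have a limma adjusted p under 0.05 with the replicate block and open points do not. Sfrp1 at −1.03 lies farthest to the left and Wnt5a at 0.75 farthest to the right.

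In the TNF comparison 0 genes of any of the 6 lists were called, with or without the block. The largest differences were those of the receptors Fzd8 at −0.45 (limma adjusted p = 0.108 with the block) and Fzd2 at −0.29, the ubiquitin ligase Rnf43, which removes Frizzled receptors from the membrane, at −0.28, and the β-catenin target Myc at 0.25 (limma adjusted p = 0.201 with the block). The ligands Wnt10b and Wnt8a differed by −0.15 and −0.12, the β-catenin cofactors Bcl9 and Bcl9l by −0.13 and −0.12, Rspo2 by 0.10, and the inhibitors Notum and Igfbp4 by −0.08 each.

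Markers of other mesenchymal fates were read in the same arrays. Of 5 adipocyte markers, 1 was called lower in BAF-knockdown cells with the block, the fatty acid carrier Fabp4 (difference −0.81, limma adjusted p = 0.127, and 0.00169 with the block). The summed linear signal of the list was 713 to 867 in BAF-knockdown cells, against 910 to 1043 in TNF-treated control cells. Fabp4 itself had linear signals of 253, 332 and 211 in BAF-knockdown cells and 442, 518 and 414 in TNF-treated control cells. The differences of the 5 markers ran from −0.81 to 0.15, so the lower sum does not show that the list fell as a set. The defining adipocyte gene Adipoq averaged 5.52, below the first quartile of all gene means of 6.61. Of the 8 fibroblast markers 1 was called lower with the block, Col3a1 (difference −0.93, limma adjusted p = 0.231, and 0.0035 with the block). All 8 differences lay below 0, from −0.93 to −0.0004. The summed signals of the list were 55127 to 56637 in BAF-knockdown cells and 54980 to 63784 in TNF-treated control cells. Over all genes, 2.33% were called lower and 0.98% higher with the block. No leukocyte, epithelial, endothelial or bone and cartilage marker was called with the block. The summed signals of the 19 leukocyte, epithelial and endothelial markers were 2779 to 2990 in BAF-knockdown cells and 2763 to 2892 in TNF-treated control cells, and those of 5 bone and cartilage markers were 2261 to 2832 in BAF-knockdown cells and 2497 to 2611 in TNF-treated control cells. The part of the marker differences in the Sfrp1 difference was not tested.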

How the data were processed

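RNA of 9 cultures of 3T3 fibroblasts was hybridised to Affymetrix mouse Gene 1.0 ST arrays. The deposited values are log2 signals that the authors obtained by RMA (background correction, quantile normalisation and summary per transcript cluster), per the submitters' processing notes. The software version and genome build are not given in the sources used here. Quantile normalisation assumes like distributions on all arrays, and signals near background understate the differences of dim genes.

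Of 27024 transcript clusters, the platform annotation gives 1 symbol to 21319, several to 1430 and none to 4275. The cluster with the highest mean was kept for each symbol (930 symbols had more than 1), which left 19698 genes.

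The tests were two-sided, by limma 3.58.1 (R 4.3.3) with 1 mean per group, moderated variances and 6 residual degrees of freedom. Benjamini-Hochberg adjustment ran over all genes. The fit was run on simulated data with planted changes larger than the Sfrp1 difference, so that run does not bear on the Sfrp1 call. No label or method ties equal replicate numbers to a shared day. The numbers were treated as pairs, since same-numbered arrays had correlations of deviations from 0.21 to 0.724 (9 pairs). Other pairs (18) had −0.566 to 0.0111, but deviations sum to 0 within a group, so these lower values follow and are not separate support. Between TNF-treated control and BAF-knockdown arrays the same-number values were 0.388, 0.21 and 0.247. They were higher between the control groups, at 0.579, 0.724 and 0.652. With the block, 4 residual degrees of freedom remain. The methods name replicates from different days, so p-values measure the spread between those cultures.

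The alternatives were the block, leaving out each array, median centring, a filter on dim genes, array weights, all rows tested, only the groups compared, the methods' Student test with and without their size thresholds (0.35 for induction, 0.3 for BAF dependence), and their size rule alone for BAF dependence. Named genes were all 9 antagonists, the checks of the knockdown and of TNF-α, up to 4 genes of each list by size of the knockdown difference (called ones first) and up to 2 by size of the TNF difference, and the 5 genes most like the antagonist with the largest knockdown difference. The members and lists were chosen with earlier results of these data known. Promoter sequences are from RefSeq (GRCm38.p6), which also gave the chromosomes. The list genes Tcf7 and Msx2 were not analysed here.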

Additional observations from a re-analysis of the deposited data

How the results depend on the processing

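The count of antagonists called in the knockdown comparison was 1 with the replicate block (Sfrp1, −1.03, limma adjusted p = 0.00784) and 0 under the other alternatives listed with the methods, except 1, again Sfrp1, by the methods' size rule of a difference above 0.3 with no test, which was added after the values were seen. The block changed no other call of an antagonist, in either comparison. In the blocked fit without number 2 the Sfrp1 difference was −1.23 (limma adjusted p = 0.00354).

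Median centring turned the TNF difference of Sfrp5 to 0.00163. The filter on dim genes removed Sfrp4 and Frzb, so no value was obtained for them there. Over the antagonists and alternatives listed with the methods, 258 differences kept direction and side of the threshold and 25 turned direction, none of them called.

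Leaving out 1 array at a time without the block, the Sfrp1 knockdown difference ran from −1.47 to −0.54 and was not called (lowest limma adjusted p = 0.375). The other knockdown differences that turned ran from −0.0294 to 0.16 for Dkk1, −0.36 to 0.17 for Dkk3, −0.0524 to 0.0227 for Frzb, −0.0336 to 0.0487 for Sfrp2, −0.00843 to 0.13 for Sfrp4, −0.0464 to 0.12 for Sfrp5 and −0.0371 to 0.0809 for Wif1, and the range of 0.0404 to 0.20 for Dkk2 did not turn. The TNF differences that turned ran from −0.16 to 0.0373 for Dkk1, −0.13 to 0.032 for Dkk2, −0.45 to 0.24 for Dkk3, −0.14 to 0.76 for Sfrp1, −0.0164 to 0.0718 for Sfrp4, −0.11 to 0.0708 for Sfrp5 and −0.0525 to 0.0655 for Wif1, and the ranges of 0.0252 to 0.13 for Frzb and 0.0336 to 0.0784 for Sfrp2 did not. The cause of these turns was not tested. With 3 arrays a group and signals of 7 antagonists below the median of all genes, small changes of those 7 could not be measured.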
